A study of Mus musculus with 168 samples.

Results

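The genes described are the nuclear genes of oxidative phosphorylation, chosen by symbol. They are the rows of the deposited table whose symbol starts with Nduf, Sdha, Sdhb, Sdhc, Sdhd, Uqcr, Cox4i, Cox5, Cox6, Cox7, Cox8 or Atp5, without rows ending in -ps, of which 1 was left out. This gave 95 genes of the 39410 in the table, and 0 of the 95 were at 0 in every library. By function 44 belong to complex I (36 subunits and 8 assembly or accessory factors), 6 to complex II (4 subunits), 8 to complex III, 20 to complex IV and 17 to ATP synthase (15 subunits). The complex IV genes were 11 subunits, 8 tissue-type paralogs of such subunits and 1 accessory factor. Atp5l2 is annotated as a processed pseudogene in GENCODE and stayed in by its symbol. The set was proposed with earlier results of these data in view, and Cox6b2 was singled out for its difference between genotypes. Cox6b2 is therefore not tested between groups here, and the counts below are over the other 94 genes.

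RNA was sequenced from neurons cut out by laser, about 150 cells to a tube, with libraries made by Smart-seq2. The mice were 19 delta7 SMA animals (Smn-/-, SMN2+/+, SMN∆7+/+) and 15 littermate controls (Smn+/+, SMN2+/+, SMN∆7+/+), so that every animal of both genotypes carried the human SMN2 and SMN∆7 transgenes and only Smn differed. The 168 libraries made 160 samples of 1 mouse and 1 population, 72 control and 88 SMA, at postnatal day 2, 5 or 10. The 5 motor populations were ocular (oculomotor and trochlear nuclei together, with some libraries of a single nucleus), facial, hypoglossal, vagus and lumbar, and the other population was the red nucleus. Each of the 36 groups held 3 to 7 mice. The targeted gene, Smn1, had 4.32 to 63.3 RPKM (reads scaled by exon length and library size) in controls and 0 to 4.24 in SMA samples, with 70 of 88 at 0. The libraries held 0.342 to 16.3 M reads by the steps of their low values, with a median of 5.89 M. The summed level of the 4 motor neuron markers in the table was 659 to 1287 RPKM in vagus controls, 710 to 1024 in ocular, 1076 to 1799 in lumbar and 29.9 to 100.5 in red nucleus controls, which goes with the labels. The samples are bulk, so fewer cells with an RNA and less of it per cell cannot be told apart.

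Oxidative phosphorylation takes place in the inner membrane of mitochondria. Complex I accepts electrons from NADH and complex II from succinate, complex III passes them to cytochrome c, complex IV hands them to oxygen, and ATP synthase uses the proton gradient built by complexes I, III and IV to make ATP. A few subunits are encoded by mitochondrial DNA and all others by nuclear genes. The genes counted here are nuclear genes taken by symbol, which leaves out Cyc1, the cytochrome of complex III. Neurons depend on this pathway for most of their ATP, and several complex IV subunits exist as paired genes, one broadly used and one typical of heart and skeletal muscle, testis or lung.

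The members lay on 19 chromosomes, with 11 on chromosome 7 and 3 on X. Of the members, 22 had a near-identical copy among annotated transcripts of other genes (at least 95% identity over at least 80% of the coding sequence). Copies outside annotated transcripts were not searched. Levels of members with copies are uncertain where reads were split between the copies. Members named below that have copies include Cox7c, Cox5b, Uqcr11, Atp5h, Atp5g1 and Sdhaf1. Promoters of 78 of the 95 members (250 bases before to 50 after the start) were found in RefSeq (GRCm38.p6) and searched on both strands for motifs of factors known for nuclear mitochondrial genes. GCGCA followed by any base and GCGC, a core of the NRF1 site, was present in 20 of the members' 84 promoters (23.8%) and in 4.60% of all 32851 promoters. CCGGAAG, an ETS site of the kind bound by GABPA, was present in 19 of 84 (22.6%) against 8.86%, and AAGATGGC, a YY1 motif, in 12 of 84 (14.3%) against 2.75%. A match describes letters and is no evidence of binding. Member promoters also had a median of 20 CG pairs, against 7 over all promoters, and the first 2 motifs hold CG pairs themselves. To show the motifs, 1 stretch from each complex is printed 5′ to 3′ on the gene's strand with the motif in capitals (CTTCCGG is the ETS site read on the other strand). The stretches lie upstream of Ndufb4, a complex I subunit (chr16:37654454-37654603, minus strand), Sdhd, a membrane anchor of complex II (chr9:50603850-50603909, minus strand), Uqcrh, the hinge protein of complex III (chr4:116075072-116075221, minus strand), Cox6a1, a complex IV subunit with a pair of NRF1 cores (chr5:115348982-115349129, minus strand), and Atp5h, a stalk subunit of ATP synthase (chr11:115419963-115420112, minus strand).
Ndufb4: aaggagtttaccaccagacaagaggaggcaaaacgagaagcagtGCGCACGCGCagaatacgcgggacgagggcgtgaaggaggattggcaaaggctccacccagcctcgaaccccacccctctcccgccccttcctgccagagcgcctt
Sdhd: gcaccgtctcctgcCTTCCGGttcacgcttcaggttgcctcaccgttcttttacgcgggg
Uqcrh: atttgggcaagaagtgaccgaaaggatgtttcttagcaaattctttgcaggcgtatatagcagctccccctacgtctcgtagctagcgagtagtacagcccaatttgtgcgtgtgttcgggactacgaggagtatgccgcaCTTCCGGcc
Cox6a1: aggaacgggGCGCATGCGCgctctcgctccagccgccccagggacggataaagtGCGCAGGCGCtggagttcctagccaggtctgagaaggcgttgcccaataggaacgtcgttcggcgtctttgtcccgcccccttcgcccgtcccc
Atp5h: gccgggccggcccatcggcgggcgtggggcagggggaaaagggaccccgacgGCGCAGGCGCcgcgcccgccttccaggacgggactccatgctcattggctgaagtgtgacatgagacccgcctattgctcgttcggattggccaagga

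As a group these were among the most abundant transcripts of the neurons. In controls 30 members averaged 1000 RPKM or more, 41 lay at 100 to 1000, 16 at 10 to 100 and 8 under 10, with a median of 399, and the members together took 7.02% to 15.9% of the RPKM of a sample. Ndufa4, a small subunit first assigned to complex I and now placed in complex IV, was the highest at 4047 RPKM and ranked 9 among all genes. Atp5j, a coupling factor of ATP synthase, followed at 3267, Cox6b1, a complex IV subunit on the side of the intermembrane space, at 3247, Cox4i1, a core-associated complex IV subunit, at 2959, and Atp5b, the catalytic beta subunit of ATP synthase, at 2830. The lowest was Cox8c, a paralog of Cox8a, at 0.218 RPKM.

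Averaged over the 3 ages, vagus motor neurons had the least of this RNA and ocular motor neurons the most, while at day 2 the members took 12.2% of the RPKM in lumbar and 11.8% in ocular controls. In controls the lowest population mean was in vagus for 67 of 95 members, and the highest was in ocular for 52. Each sample was summarised by the median deviation of its members of 50 RPKM or more from their means, in log2 units. In vagus controls this was -0.499, -0.370 and -0.329 at day 2, -0.617, -0.522, -0.471 and -0.388 at day 5, and -0.298, -0.255, -0.244 and -0.223 at day 10. At days 5 and 10 every vagus control was below every control of the other populations of that age, and at day 2 this held for 1 of 3. In ocular controls it was -0.202, 0.108, 0.151 and 0.202 at day 2, 0.170, 0.176, 0.259 and 0.302 at day 5, and 0.370, 0.388, 0.468 and 0.477 at day 10. The 4 ocular controls of day 5 were above all controls of that age, at day 10 this held for 2 of 4, and at day 2 for 0 of 4. SMA mice are other animals: their vagus samples had -0.685 to -0.233 at day 2, -0.591 to -0.123 at day 5 and -0.444 to 0.00710 at day 10, and their ocular samples -0.247 to 0.494, 0.0350 to 0.249 and 0.229 to 0.565.

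**Figure D1:**
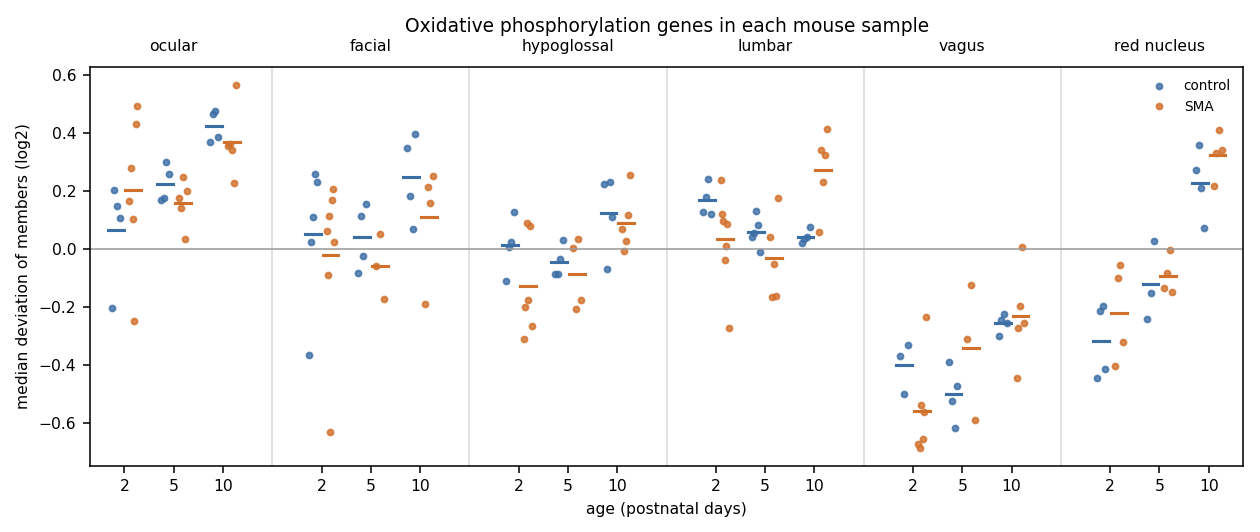
Median deviation (log2) of the oxidative phosphorylation genes of 50 RPKM or more in each mouse sample, by population and postnatal day; blue points are controls, orange points SMA mice, short bars group means. The vagus controls of days 5 and 10 lie under all other controls of their age, and red nucleus controls run from -0.446 to -0.196 at day 2 and from 0.0734 to 0.360 at day 10.

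Against the mean of the other 5 populations in controls, 60 of 94 members were lower in vagus and 0 higher at a limma adjusted p under 0.05. Among the 72 members without a near-identical copy, 44 were lower. Of all genes tested, 27.7% passed in either direction, 12.2% lower and 15.5% higher. The members' median log2 difference was -0.41, against 0.01 over all genes. Since the members are abundant, they were set beside other genes of at least 50 RPKM: 75.3% of the 77 members at that level were lower (median -0.50), and 23.8% of the other genes (median 0.05). Complex II had 1 of 4 subunits lower. Complex III had 8 of 8 lower (median -0.50), complex IV 10 of 11 subunits (median -0.66), ATP synthase 12 of 15 subunits (median -0.58) and complex I 26 of 36 subunits (median -0.39). Among assembly factors of complex I it was 3 of 8, and among the tissue-type paralogs of complex IV 0 of 7.

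The largest difference of a member was that of Ndufaf2, an assembly factor of complex I. It had 79.3, 84.4 and 88.2 RPKM in vagus controls at day 2, 42.4, 56.3, 69.3 and 104.95 at day 5, and 36.7, 53.1, 57.6 and 60.7 at day 10. Controls of the other populations had 68.4 to 256.9, with means of 130 to 170.6, and the ranges overlapped at day 2 but not at day 5 or day 10. The log2 difference was -1.16 ± 0.101 (SE; 11 vagus samples, limma adjusted p = 6.4e-15). Atp5c1, the rotating gamma subunit of ATP synthase, averaged 221.7 RPKM in vagus and 401 to 486 in the others (log2 difference -1.003 ± 0.114). Cox6c, a small complex IV subunit with 2 near-identical copies, averaged 1164 in vagus and 1720 to 2732 elsewhere (-0.98 ± 0.0913).

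Lower members of complex I included Ndufs1, the large iron-sulfur subunit (-0.91), and Ndufv1, which binds NADH (-0.71). In complex III these were the Rieske iron-sulfur protein Uqcrfs1 (-0.54) and the core proteins Uqcrc1 (-0.50) and Uqcrc2 (-0.50). In complex IV they included Cox7c (-0.92, with 3 near-identical copies), Cox5a (-0.76), Cox7a2 (-0.73), Cox4i1 (-0.67) and Cox5b (-0.52, with 1 copy). In ATP synthase they included Atp5g3 of the membrane ring (-0.68, limma adjusted p = 2.7e-19) and the alpha subunit Atp5a1 (-0.52). In complex II only the iron-sulfur subunit Sdhb passed (-0.26). The flavoprotein Sdha, which oxidises succinate, was at -0.43 (limma adjusted p = 0.075), Sdhc at -0.38 and Sdhd at -0.18. Abundant members that missed the threshold were Ndufa4 at -0.15 (adjusted p 0.055) and Atp5b at -0.32 (0.34).

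Glial markers differed in the vagus samples too. The 8 astrocyte markers summed to 387 to 821 RPKM in vagus controls and 625 to 2796 in the other populations, though 3 of the 8 were higher and 2 lower in vagus. Most of that sum was Aldoc, which is also among the glycolysis genes below. Aldoc averaged 494.7 RPKM of a mean sum of 584.7 in vagus controls, and 1612 of 2050 in ocular controls. Of 7 oligodendrocyte markers 6 were lower and 1 higher in vagus, and of 7 microglia markers 3 were higher (summed level 11.9 to 70.6 RPKM). None of these markers was at 0 in all vagus controls. The part of these in the members' difference was not tested.

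Ocular neurons were the reverse: 51 of 94 members were higher than in the other 5 populations and 1 was lower (17.7% of all genes called, 7.77% higher and 9.95% lower; members' median 0.26, all genes -0.05). Of members of at least 50 RPKM, 61.0% were higher, and of other genes at that level 15.2%. The higher ones were 20 of 36 complex I subunits, 1 of 4 in complex II, 6 of 8 in complex III, 8 of 11 in complex IV and 9 of 15 in ATP synthase. Ndufs1 (0.70), Sdha (0.70) and Atp5g3 (0.51 ± 0.0446, limma adjusted p = 1.3e-14) were among them. Ndufab1, the mitochondrial acyl carrier protein held in complex I, was also higher (0.86 ± 0.271, adjusted p = 0.018), but its ocular values ran from 91.2 to 397 RPKM and overlapped every other population, it has 2 near-identical copies, and the call was lost without mouse 28, 29 or 253. The lower one was Ndufa7, an accessory complex I subunit (-0.28 ± 0.0618). In ocular controls 2 of 7 oligodendrocyte markers and 3 of 8 astrocyte markers were higher and 1 astrocyte marker lower, and their part in the result was not tested.

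**Figure D2:**
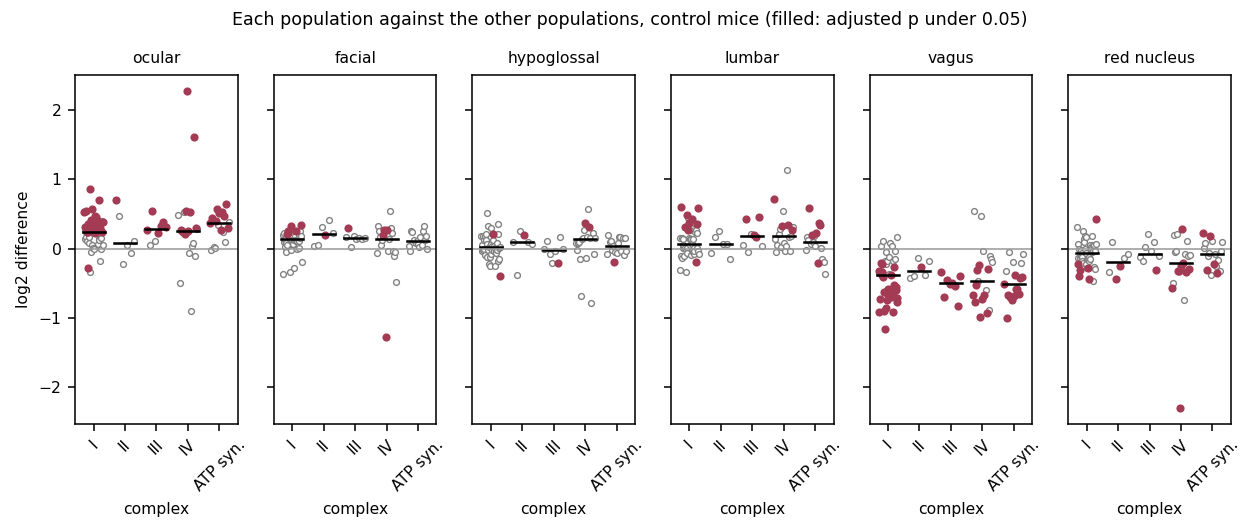
Log2 difference of each population from the mean of the other 5 in control mice (vertical axis) for each member, grouped by complex (horizontal axis); filled points passed an adjusted p of 0.05, open points did not, and bars are group medians. Filled points lie under 0 in vagus (60 of 94) and over 0 in ocular (51 of 94).

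The other populations differed less. Lumbar had 21 members higher and 2 lower, where 9.59% of all genes were higher and 8.8% lower (18 and 5 members after quantile normalization). Facial had 11 higher and 1 lower (all genes 5.84% and 3.42%), hypoglossal 4 higher and 3 lower (7.11% and 3.68%), and red nucleus 4 higher and 19 lower (8.82% and 13.1%; 7 and 13 members after quantile normalization). The share of members called in either direction was 24.5% in lumbar and in red nucleus, 12.8% in facial and 7.45% in hypoglossal neurons, where the share of all genes was 18.4%, 21.9%, 9.27% and 10.8%. The facial count was 7 without mouse 34 or 254, 19 without mouse 253 and 24 without mouse 14, and the hypoglossal count was 4 without any 1 of mice 30, 34, 75, 240, 247, 253 and 254. In lumbar Cox4i1 (0.72 ± 0.184), Ndufa10, an accessory complex I subunit (0.61), and Atp5d, the delta subunit of ATP synthase (0.59), were the highest, while Atp5j (-0.21) and Ndufs4, a complex I subunit mutated in Leigh syndrome (-0.19), were lower. The Atp5j call was lost without any 1 of 10 of the 15 control mice, and that of Ndufs4 without mouse 240. In red nucleus Cox4i1 (-0.56) and Ndufb7 (-0.44) were lower, 7 of 11 complex IV subunits were lower in all, and the complex I subunit Ndufv3 (0.43), the supercomplex factor Cox7a2l (0.29) and Atp5a1 (0.23) were higher. The Cox4i1 call there was lost without mouse 34, 244, 247, 252 or 254. These differences average the 3 ages, and the members' median deviation in red nucleus controls averaged -0.32 at day 2 and 0.23 at day 10. In facial neurons Ndufv2 (0.34), Ndufaf5 (0.32) and Uqcr11 (0.29) were higher, and in hypoglossal neurons Ndufv3 (-0.39), Uqcrfs1 (-0.20) and Atp5g1 (-0.19) were lower and Cox7a2 (0.36), Cox7c (0.31) and Ndufb6 (0.21) higher. Calls were lost in facial neurons for Ndufv2 without mouse 252 or 254 and for Ndufaf5 without mouse 34 or 244. In hypoglossal neurons they were lost for Uqcrfs1 without mouse 254, and without any 1 of 10 mice for Atp5g1, 8 for Cox7c and 12 for Ndufb6, of 15. Set directly against lumbar, ocular neurons had 23 members higher and 3 lower (15.2% of all genes called, 6.68% higher and 8.5% lower), a count of 26 that was 13 without mouse 244 and 17 without mouse 30. Over all 6 populations, 73 of 94 members varied by limma's F test (44.5% of all genes).

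Complex IV holds pairs of a broadly used subunit gene and a paralog typical of heart and skeletal muscle, and here Cox7a1 and Cox8b of the muscle type had their highest control means in ocular neurons. Cox7a1 averaged 68.6 RPKM in ocular controls, 28.5 in vagus, 25.1 in hypoglossal, 23.4 in lumbar, 11.5 in facial and 6.33 in red nucleus controls. Single ocular controls had 29.6, 39.7, 40.4 and 70.5 at day 2, 27.0, 51.9, 60.5 and 151 at day 5 and 63.0, 77.3, 93.4 and 118.7 at day 10, while red nucleus controls had 0, 0, 0.384 and 13.1, then 0, 6.37 and 10.1, then 2.55, 8.04, 10.9 and 18.1. No red nucleus control reached the lowest ocular control. The log2 difference was 2.28 ± 0.361 in ocular (limma adjusted p = 1.3e-06), -2.29 ± 0.377 in red nucleus (1.9e-06) and -1.27 ± 0.352 in facial neurons (0.011). The call in facial neurons was lost without mouse 34. Its broad partner Cox7a2 was at 1409 RPKM in hypoglossal and 748 in vagus controls, so Cox7a1 stayed a minor form in each population.

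Cox8b rose with age in ocular neurons of both genotypes. In ocular controls it was 0, 0, 1.33 and 1.57 RPKM at day 2, 0, 0, 0 and 19.3 at day 5, and 16.6, 21.4, 22.9 and 25.2 at day 10. In ocular SMA samples it was 0 in 5 and 1.21 in 1 at day 2, 0, 0, 0.748, 4.04 and 4.09 at day 5, and 14.5, 19.3, 19.6, 33.8 and 51.3 at day 10. Day 2 and day 10 did not overlap in either genotype, and the change was 3.83 ± 0.702 in controls (log2 of RPKM plus 1, limma adjusted p = 6.75e-04) and 4.51 ± 0.601 in SMA mice (1.4e-05). Cox8b was listed at 0 in 11 of 11 vagus controls, with control means of 4.55 in red nucleus (from 2 high samples, 34.6 and 14.7), 2.60 in lumbar, 1.15 in facial and 0.0765 in hypoglossal neurons. Its ubiquitous partner Cox8a averaged 1379 RPKM over all controls. The other muscle-type gene, Cox6a2, averaged 2.49 RPKM with the highest mean in red nucleus (6.91). Cox4i2, typical of lung, averaged 1.10 and Cox7b2, typical of testis, 4.75. Cox7b2 was lower in ocular (2.46) than in lumbar neurons (6.87; -1.69 ± 0.573, adjusted p = 0.034), a call lost without any 1 of mice 30, 71, 240, 244 and 252.

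**Figure D3:**
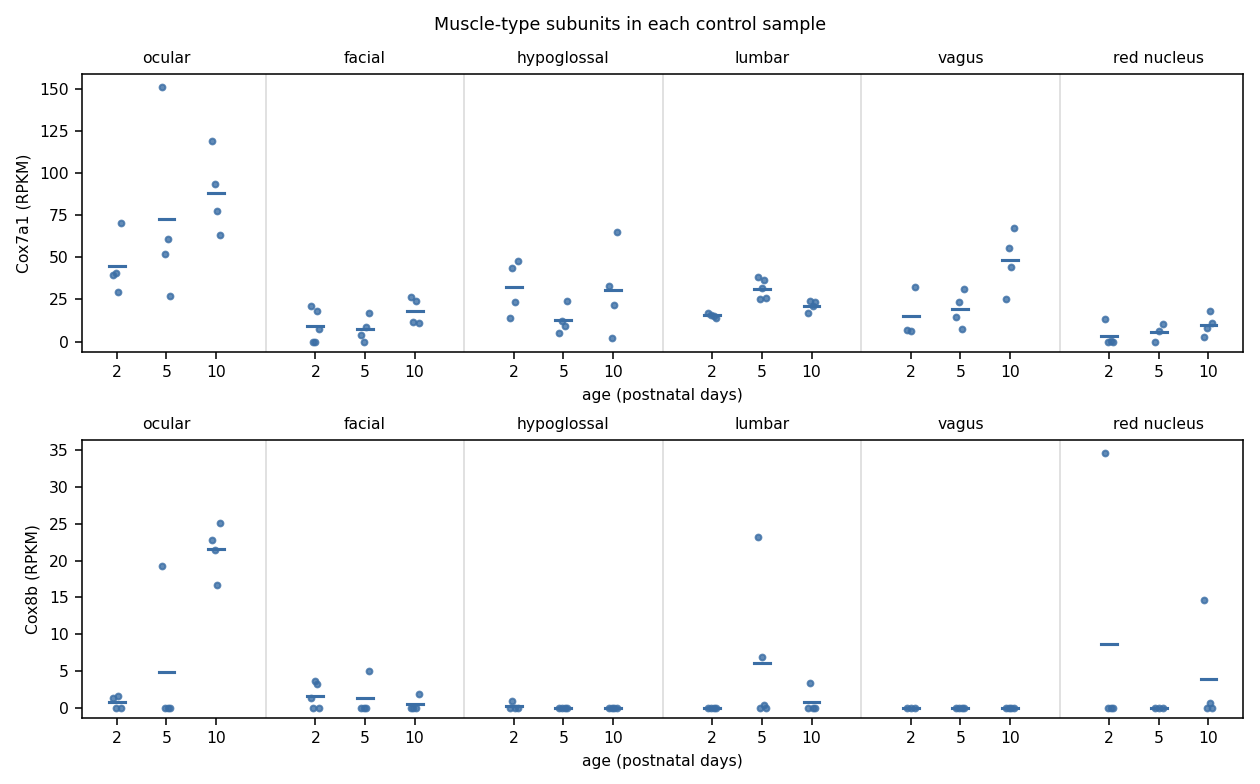
RPKM of Cox7a1 (upper panels) and Cox8b (lower panels) in each control sample by population and postnatal day; points are mice and short bars group means, on linear axes of different range. Cox8b in ocular controls is 16.6 to 25.2 RPKM at day 10 and 0 to 1.57 at day 2.

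The upstream sequence is shown for 3 pairs, which were chosen by hand. The stretches hold no annotated exon and share a build. Other pairs were not compared. Cox6b1 (chr7:30626152-30626301, minus strand), Cox7a2 (chr9:79759879-79760028, minus strand) and Cox8a (chr19:7217617-7217766, minus strand) are the broad forms, and Cox6b2 (chr7:4753095-4753225, minus strand), Cox7a1 (chr7:30183994-30184143, plus strand) and Cox8b (chr7:140900447-140900596, minus strand) the tissue types. Over the whole 300-base promoters there were 17 CG pairs in Cox6b1 and 10 in Cox6b2, 20 in Cox7a2 and 7 in Cox7a1, and 19 in Cox8a and 2 in Cox8b. The median was 20 over member promoters and 7 over all promoters. Capitals mark the CG pairs.
Cox6b1: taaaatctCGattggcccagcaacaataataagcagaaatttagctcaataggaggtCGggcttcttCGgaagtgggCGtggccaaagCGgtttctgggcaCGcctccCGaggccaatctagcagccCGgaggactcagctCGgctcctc
Cox6b2: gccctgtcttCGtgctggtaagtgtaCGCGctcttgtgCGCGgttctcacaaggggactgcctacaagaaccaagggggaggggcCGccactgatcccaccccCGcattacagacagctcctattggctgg
Cox7a2: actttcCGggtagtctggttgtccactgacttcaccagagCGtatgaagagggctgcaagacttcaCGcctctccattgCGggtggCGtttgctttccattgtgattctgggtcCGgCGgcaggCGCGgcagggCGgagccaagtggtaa
Cox7a1: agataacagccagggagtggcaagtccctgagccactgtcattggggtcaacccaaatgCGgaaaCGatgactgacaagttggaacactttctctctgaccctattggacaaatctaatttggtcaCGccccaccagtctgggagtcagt
Cox8a: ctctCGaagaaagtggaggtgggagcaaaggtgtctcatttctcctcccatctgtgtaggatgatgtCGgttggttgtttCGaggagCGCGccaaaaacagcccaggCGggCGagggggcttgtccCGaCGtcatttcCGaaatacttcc
Cox8b: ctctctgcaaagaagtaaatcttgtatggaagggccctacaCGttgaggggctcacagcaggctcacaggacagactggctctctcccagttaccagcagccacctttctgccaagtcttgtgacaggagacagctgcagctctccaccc

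Maturation from day 2 to day 10 was accompanied by a rise of the members in red nucleus controls. There 38 of 90 members tested were higher at day 10 and 0 lower (11.1% of all genes called, 5.72% higher), with a members' median of 0.56 against -0.01 over all genes. Of members of at least 50 RPKM 48.1% rose, and of other genes at that level 14.1%. By complex it was 17 of 36 subunits in complex I, 6 of 8 in complex III, 6 of 11 in complex IV, 6 of 15 in ATP synthase and 0 of 4 in complex II. SMA red nucleus neurons had 21 of 90 higher and 0 lower (5.06% of all genes called, 2.98% higher; median 0.53). The control count was 25 without mouse 252, whose red nucleus library was the shallowest. It was 19 with only the control groups in the fit and 19 after quantile normalization (median 0.41). With only day 2 controls of library numbers above 200, 1 mouse (244) was left at day 2, so no count is given. The SMA count was 8 without mouse 211, 249 or 258, 10 without mouse 199, 12 without mouse 206 and 10 after quantile normalization.

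Ndufa2, an accessory complex I subunit, had 801, 834, 1096 and 1115 RPKM in red nucleus controls at day 2, 819, 1013 and 1033 at day 5 and 1591, 1628, 1739 and 2217 at day 10. Every sample of day 10 was above every earlier one, and the change was 0.90 ± 0.158 (limma adjusted p = 5.4e-04). Ndufa4 had 2244, 2552, 2605 and 2962 at day 2 and 3526, 4543, 4696 and 5063 at day 10 (0.78 ± 0.149), without overlap. In SMA red nucleus it was 2412 to 3008 at day 2 and 3833 to 5739 at day 10. With the day 2 controls above library number 200, which left 1 mouse (244) at day 2, the Ndufa4 change was 0.58. Over its other alternatives the limma adjusted p was 0.0015 to 0.021. Ndufa10 (1.16), Ndufa9 (1.02), Ndufa3 (0.98), Cox4i1 (1.16 ± 0.369, adjusted p = 0.0435), Uqcrc1 (0.80), and in ATP synthase Atp5j2 (1.09) and Atp5d (1.03) rose too. Assembly factors that rose were Sdhaf1 of complex II (1.39) and Ndufaf1 of complex I (1.28). Ndufaf1 was near the threshold, with a call lost when any 1 of 20 of the 23 mice was left out.

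The glial markers of these samples rose over the same days. The summed oligodendrocyte markers were 17.5 to 26.6 RPKM in red nucleus controls at day 2 and 325 to 655 at day 10 (6 of 7 higher), and the astrocyte markers 625 to 987 and 1596 to 2127 (2 of 8 higher). Over red nucleus controls of all ages, Aldoc averaged 1148 RPKM of a mean astrocyte sum of 1269. In lumbar controls the oligodendrocyte markers went from 18.4 to 48.9 at day 2 to 549 to 1191 at day 10 (7 of 7 higher), and the astrocyte markers from 1836 to 2175 to 1861 to 2108 (3 of 8 higher, 2 lower). In ocular controls the astrocyte markers went from 1512 to 1815 to 2113 to 2594 (1 of 8 higher). The part of glial RNA in the red nucleus rise was not tested. Library numbers differ with age throughout, 86 to 211 at day 2 and 190 to 260 at day 10, so age and library number cannot be told apart.

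In the other controls fewer members changed. Ocular neurons had 12 of 92 higher and 0 lower (8.02% of all genes called, 4.38% higher; median 0.38), a count of 7 without mouse 14, 252 or 253 and 20 with each library as its own sample. They included Cox8b, the complex I assembly factor Ndufaf3 (1.09), Ndufa9 (0.76), Atp5h (0.72) and Uqcrc2 (0.62). Facial neurons had 3 of 92 higher (2.6% of all genes higher), hypoglossal 1 of 92 (2.43%) and vagus 2 of 92 (0.581%). Ndufa4 was in all 3 of these groups. Ndufc1, a small complex I subunit, went in facial controls from 176.4 to 780 RPKM at day 2 to 1159 to 1406 at day 10 (1.49 ± 0.433, adjusted p = 0.040). That call was lost without any 1 of mice 14, 26, 61, 77, 247, 252, 253 and 254, and its adjusted p was 0.030 to 0.47 over the alternatives. The facial count fell to 0 without mouse 14, 247, 252 or 254 and to 1 without mouse 26, the vagus count to 0 without mouse 240, 244, 247 or 254 and to 1 without mouse 26 or 253, and the hypoglossal count went to 4 without mouse 252 and 2 without mouse 26, 28 or 247.

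Lumbar controls had 0 of 93 members higher and 4 lower, where 12.0% of all genes were called, 4.76% higher and 7.25% lower. The members' median was -0.12 and that of all genes -0.10, so neither count nor median sets the members apart. After quantile normalization, which moved the median of all genes by 0.10, 2 were higher and 6 lower, and without mouse 244 or 252 the count was 2. Sdhd fell most, from 244, 261, 269 and 276 RPKM at day 2 to 142, 146, 149 and 198.3 at day 10, without overlap (-0.73 ± 0.128, limma adjusted p = 1.58e-04). The complex I subunits Ndufb9 (-0.51), Ndufa7 (-0.46) and Ndufc2 (-0.42) made up the rest. The Ndufa7 call was lost without any 1 of 7 of the 30 mice, and that of Ndufc2 without mouse 244 or 252. In SMA lumbar neurons 28 of 93 members were higher at day 10 and 1, Ndufs1, lower (18.4% of all genes called, 8.55% higher and 9.8% lower; median 0.22). They included Ndufa2 (0.77 ± 0.0998, adjusted p = 1.8e-06), Cox4i1 (0.89), Ndufaf3 (0.86), Ndufa13 (0.57) and Uqcr11 (0.50). The difference between genotypes in the change from day 2 to day 10 was called for 0 of 93 members in lumbar neurons (0.0% of all genes by limma). An unadjusted p under 0.05 was reached by 41 members. The share of all genes at that unadjusted p was not taken, so the 41 cannot be set beside it. In vagus SMA mice 11 of 92 rose (1.54% of all genes higher), 3 without mouse 250, 5 without mouse 249, 6 without mouse 207 or 258 and 7 without mouse 18 or 199. The counts were 6 of 92 in hypoglossal (2.43% of all genes higher), 2 of 92 in ocular (3.63%) and 1 of 92 in facial SMA mice (3.51%), and in facial 3 were higher and 1 lower after quantile normalization.

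Whether the red nucleus change differed was tested after the results were seen. Against the mean change of the 5 motor populations, 13 of 94 members rose more in red nucleus controls and 0 less (2.95% of all genes called, 1.75% higher; median difference 0.39). Against lumbar alone it was 20 of 94 (1.73% of all genes, 1.31% higher; median 0.65). Without the shallowest library these counts were 6 and 12, and after quantile normalization 4 and 5.

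**Figure D4:**
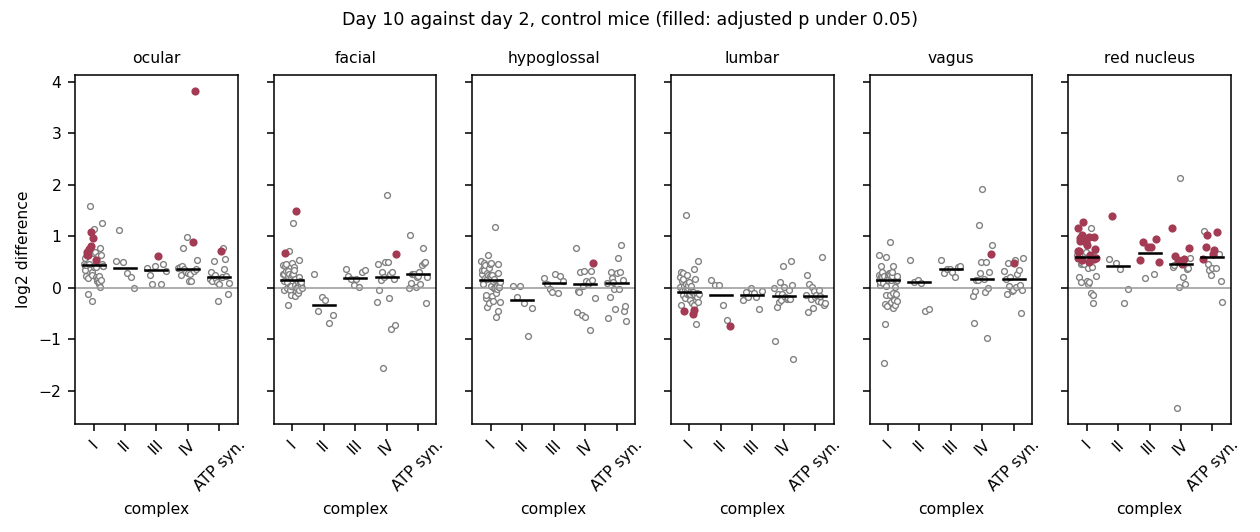
Log2 change from day 2 to day 10 in control mice (vertical axis) for each member by complex (horizontal axis) and population; filled points passed an adjusted p of 0.05, and bars are medians. In red nucleus 38 filled points lie over 0, and in lumbar 4 lie under 0.

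Few of these genes passed the test between SMA and control neurons. Over 18 comparisons of population and age, 1 of 1653 tests of members passed (0.0605%), against 0.129% of the tests of all genes, and 8.95% had an unadjusted p under 0.05 against 7.10%. Medians of the members' log2 differences were -0.17 to 0.23. The highest was in lumbar neurons at day 10 (all genes 0.05), with 78 of 93 members positive. The lowest was in vagus at day 2 (all genes 0.04), with 28 of 92 positive. The count of 1 became 0 without any 1 of mice 247, 250, 252, 253 and 258, 2 without mouse 16, 31, 38, 77, 196 or 207, and 3 without mouse 211. With only the day 2 controls of library numbers above 200, ocular and red nucleus kept 1 control each at day 2, so no count is given. No interaction of genotype with age was called for a member by limma's F test in any population. Of all genes, 0.104% were called in facial, 0.101% in ocular and 0.0% in the other neurons. In lumbar neurons 38 members had an unadjusted p under 0.05, and the share of all genes at that p was not taken. Simulated differences of 1 on the log2 scale were found at a rate of 39% and of 0.5 at 1% in the red nucleus comparison of day 10. Differences of that size could thus be missed there. That simulation called 42 genes and the data 2, and the rates depend on how many genes differ. The other genotype comparisons were not simulated.

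The member that passed was Sdhd, in lumbar neurons at day 10 (0.775% of all genes called there, 0.708% higher). Controls had 142, 146, 149 and 198.3 RPKM and SMA mice 203.98, 204.44, 220, 268 and 281, and the groups did not overlap. The difference was 0.56 ± 0.121 (limma adjusted p = 0.0162; 0.021 to 0.14 over the alternatives). It was not called in a fit of the compared groups alone, or without any 1 of the 5 mice just named. At day 2 SMA mice had 200 to 276 RPKM and controls 244 to 276, and at day 5 272 to 300 and 239 to 318, with overlap at both. The range of SMA samples at day 10 overlapped those of day 2 and day 5, and that of controls lay under both.

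Cox6b2, the testis-type partner of Cox6b1 (chromosome 7, 4751792 to 4753094, minus strand, protein coding), is described by its values alone. At day 10 it was 5.95, 6.14, 13.9 and 17.6 RPKM in ocular controls and 49.8, 54.5, 67.8, 75.4 and 118.2 in ocular SMA mice. In facial neurons it was 4.42, 19.8, 21.7 and 40.6 in controls and 85.1, 96.2, 126.06 and 143 in SMA mice. In lumbar neurons it was 4.30, 6.58, 7.97 and 45.4 in controls and 45.9, 54.3, 61.4, 80.8 and 86.7 in SMA mice. Every SMA sample lay above every control in these 3 populations, and the means were 6.70, 5.20 and 4.10 times as high. Hypoglossal controls had 11.0, 13.5, 19.1 and 83.3 and SMA mice 75.5, 94.2, 100.5, 139 and 162.9 (3.61 times), and here 1 control lay within the SMA range. Lumbar neurons already differed without overlap at day 5, with 6.34, 22.3, 24.1, 30.6 and 31.1 in controls and 35.5, 37.5, 62.8, 70.6 and 122.3 in SMA mice. Those 5 controls also hold reads from an earlier deposit, per their labels. The ratio of means at day 10 was 1.43 in vagus (42.0 and 60.3) and 1.63 in red nucleus (17.9 and 29.1), with overlap. The mean log2 difference was positive in 18 of 18 comparisons, from 0.04 in red nucleus at day 2 to 2.71 in ocular neurons at day 10. In red nucleus at day 2 the median of all genes was 0.11. Since Cox6b2 was singled out for this difference and comparisons of the same age share mice, the signs are no test.

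**Figure D5:**
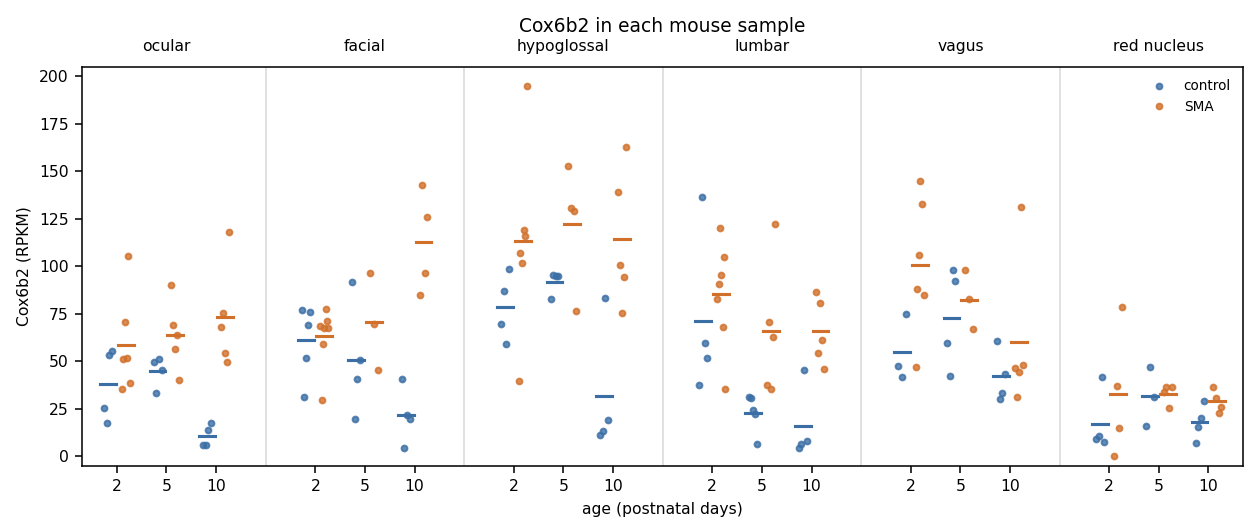
Cox6b2 (RPKM) in each mouse sample by population and postnatal day; blue points are controls, orange points SMA mice, short bars group means. At day 10 ocular controls lie at 5.95 to 17.6 and ocular SMA mice at 49.8 to 118.2.

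In controls Cox6b2 was lower at day 10 than at day 2 in 5 populations by its means. Control means went from 71.2 RPKM at day 2 to 16.1 at day 10 in lumbar, from 38.0 to 10.9 in ocular, from 61.0 to 21.6 in facial, from 78.5 to 31.7 in hypoglossal and from 54.7 to 42.0 in vagus neurons, and were 17.2 and 17.9 in red nucleus. SMA means went from 85.4 to 65.8 in lumbar, from 58.7 to 73.1 in ocular, from 63.1 to 112.6 in facial, from 113.04 to 114 in hypoglossal and from 100.6 to 60.3 in vagus neurons. Single control samples of day 2 and day 10 overlapped in each population. In SMA mice they overlapped in all populations but facial. There every day 2 sample was at most 77.7 RPKM and every day 10 sample at least 85.1. Its level ranged in controls from a mean of 67.4 in hypoglossal to 21.4 in red nucleus, far under the 3247 of Cox6b1. The genes most like Cox6b2 over the 160 samples, by Pearson's r of log2 values among 21717 genes, were Ifitm2 (0.55), Gpx3 (0.54), Rhoc (0.53), Clic1 (0.52) and Fgd5 (0.52), while Cox6b1 had 0.17; the samples share libraries and depth, and no p is given. Of its neighbours on chromosome 7, Suv420h2 had 6.27 ± 1.12 RPKM in ocular controls of day 10 and 5.30 ± 1.54 in SMA mice (SD, n = 4 and 5), and passed in 0 of 18 comparisons by limma. Tmem150b, Fam71e2 and Il11 were near 0.

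Related genes of mitochondrial metabolism were taken from lists chosen with results in view. Of all genes, 12.2% were lower and 15.5% higher in vagus, and 7.77% higher and 9.95% lower in ocular neurons. A list of 18 genes held the citrate cycle together with Pdha1, Pdhb and Dlat of pyruvate dehydrogenase and the cytosolic Mdh1. Of these 18, 15 were lower in vagus and 0 higher, and 14 were higher in ocular and 0 lower. From day 2 to day 10, 13 rose in red nucleus controls (5.72% of all genes) and 11 in SMA mice (2.98%). Idh3a, a subunit of the NAD-dependent isocitrate dehydrogenase, averaged 73.8 RPKM in vagus controls and 168.5 in ocular. Cycs, somatic cytochrome c, and Cyc1, the cytochrome of complex III, were lower in vagus (-0.88 and -0.82) and higher in ocular neurons. Of 13 genes encoded by mitochondrial DNA, 8 could be tested. Of these 7 were lower in vagus, and 3 were higher in ocular and 3 in lumbar neurons (9.59% of all genes higher in lumbar). From day 2 to day 10 in controls, of 7 tested 0 rose in any population. In lumbar 3 fell (7.25% of all genes), in facial 1 (2.76%) and in hypoglossal neurons 1 (2.68%). The genes mt-Co2, mt-Co3, mt-Atp6, mt-Atp8, mt-Nd3 and mt-Nd4l were near 0 in controls of every population. The highest mean of mt-Co2 was 0.088 RPKM, in red nucleus, while mt-Nd1 averaged 7671 in vagus. Copies of mitochondrial genes in nuclear DNA make the levels of all these genes uncertain. Of 13 regulators, Esrra, Esrrb, Esrrg, Ppargc1a, Ppargc1b and Tfam were lower in vagus. Esrrg, an orphan receptor that drives mitochondrial genes, averaged 4.11 ± 1.99 RPKM in vagus controls (SD, n = 11), 94.7 in red nucleus and 63.4 in ocular (vagus difference -3.05, limma adjusted p = 1.8e-29). Esrrg was also lower in facial (19.4) and hypoglossal neurons (20.2) and higher in ocular and red nucleus. Its coactivator Ppargc1a averaged 2.71 in vagus, 3.46 in lumbar and 4.04 in facial controls, each called lower, 6.71 in hypoglossal, 18.9 in ocular and 18.6 in red nucleus. Esrrb averaged 0.506 in vagus, 1.37 in hypoglossal and 2.97 in facial controls, each called lower, 8.75 in red nucleus, 8.90 in lumbar and 47.5 in ocular controls. Low levels of Esrrg, Ppargc1a and Esrrb were thus found in other populations too, and their part in the members' levels was not tested. Of 16 assembly factors of complex IV tested, 2 were higher and 3 lower in vagus. Of 19 glycolysis genes 3 were higher and 7 lower in vagus, and 6 higher and 2 lower in ocular neurons. Levels within this list are uncertain: Gapdh averaged 4.5 to 9.4 RPKM over the control populations and Pgam1 2.4 to 3.6, beside 803 to 1056 for Aldoa. Near-identical copies were searched for the members only, so the related genes, Cycs among them, have no such count.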

How the data were processed

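The authors deposited RPKM for 39410 genes in 168 libraries. Per the submitters' processing notes the tools named include STAR 2.4.1c and the builds are mm10 and hg19. The counter, the annotation and the use of strand are not given in the sources used here. Libraries of the same mouse and population were averaged (8 samples), and the mouse was the replicate. Positions came from GENCODE M21 and promoters from RefSeq, both on GRCm38. Depth was recovered from the steps of low values: 45.5% of 26867 genes fell on whole reads in every library, within 0.02 reads. Since this is far from nearly all genes, no count test was run.

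The 2-sided tests used limma 3.58.1 (R 4.3.3; lmFit, then eBayes with trend) on log2 RPKM after adding 1, which understates changes of low genes. Genotype and age were tested in 1 fit per population with its 6 groups, and populations in 1 fit of the 72 control samples with 18 groups, each averaged with equal weight over the 3 ages. A gene entered a fit if at least 1 RPKM was reached in as many samples as its smallest group has. Benjamini-Hochberg adjustment ran over all genes of 1 contrast, and 0.05 was the threshold. Nothing in the labels says more of the replicates than the mouse they came from. On simulated data differences of 1 and 0.5 were found at 96% and 70% for vagus against the other populations. For day 10 against day 2 in red nucleus controls they were found at 38% and 0%. These simulations changed 100 genes by each size and called 178 and 40 genes, where the data gave 5434 and 1797. The adjustment depends on how many genes differ, so these rates do not hold for the data. Ndufa7, for example, was called in red nucleus controls at a change of 0.53.

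The members, lists and comparisons were chosen with earlier results of these data known. Named genes were the paralog pairs, core subunits of each complex, up to 5 members with the largest mean rise and 5 with the largest mean fall in control maturation, the 3 highest and 3 lowest called in each population contrast, and every member called between genotypes. Other members named were chosen after their values were seen. The same mouse number marks the same animal across populations, so populations are paired by animal. The consensus correlation within a mouse was 0.0339, and a fit with the mouse as a block was an alternative. Others were a pseudocount of 0.1, no filter, quantile normalization, each library as its own sample, only the groups compared, day 2 controls split at library number 200 (different mice), and leaving out each mouse.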

Additional observations from a re-analysis of the deposited data

Results flagged for a closer look

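In groups of 4 to 10 samples, a sample set far apart from the others of its group was looked for, within each group, in Cox6b2, Cox7a1, Cox8b and the members' median deviation. Each of the 4 measures was tested in 32 groups, and such a sample was found in 23 of these cases in all. Chance gives about 1 in 20, but that rate does not hold where all other samples are at 0, as in most of the Cox8b cases, since any value above 0 then stands apart. For Cox6b2 the samples were facial SMA mouse 18 at day 2 (29.6 RPKM, the others 59.2 to 77.7), vagus SMA mouse 250 at day 10 (131), red nucleus control mouse 28 at day 2 (41.5) and hypoglossal control mouse 29 at day 5 (82.7, the others 94.8 to 95.4). Control mouse 253 stood apart at day 10 in both hypoglossal (83.3, the others 11.0 to 19.1) and lumbar neurons (45.4, the others 4.30 to 7.97). For Cox7a1 they were ocular SMA mouse 249 at day 10 (192.1 RPKM) and red nucleus control mouse 14 at day 2 (13.1).

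For Cox8b the samples were red nucleus control mice 14 at day 2 (34.6 RPKM) and 247 at day 10 (14.7), ocular control mouse 29 at day 5 (19.3) and ocular SMA mouse 16 at day 2 (1.21). In facial neurons they were SMA mouse 18 at day 2 (1.19) and control mice 75 at day 5 (5.04) and 254 at day 10 (1.78). In hypoglossal neurons they were SMA mice 16 at day 2 (11.3) and 196 at day 10 (7.26) and control mouse 28 at day 2 (0.918). In lumbar neurons they were SMA mice 61 at day 5 (2.55) and 250 at day 10 (7.14) and control mouse 252 at day 10 (3.29).

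The members' median deviation stood apart in facial SMA mouse 206 at day 2 (-0.632, the others -0.0903 to 0.207) and in vagus SMA mouse 211 at day 2 (-0.233, the others -0.685 to -0.536). The change from day 2 to day 10 differed between red nucleus and the motor populations for 13 of 94 members (2.95% of all genes). Between red nucleus and lumbar it differed for 20 of 94 (1.73% of all genes), by limma's test of the difference. This test was added after the results were seen. Both counts were lower without the shallowest library and after quantile normalization, as given above.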

How the results depend on the processing

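Beside the fits without 1 mouse, 99 alternative counts were within 1.5 times the reported count, those below were not, and 0 of 544 alternatives of 70 named gene results reversed the direction, while 88 lost the call. The causes were not tested. With mouse as a replicate block, which takes up the pairing of populations by animal, the counts were 61 in vagus, 52 in ocular, 14 in facial, 7 in hypoglossal, 25 in lumbar, 25 in red nucleus, 27 for ocular against lumbar and 74 by the F test, and no count moved by over 1.5 times. Maturation and genotype groups are different mice and cannot be paired. With day 2 controls above library number 200, control maturation counts were 0 in facial and 1 in vagus. The genotype count and the red nucleus maturation count moved as well. They are not given, since ocular and red nucleus kept 1 control each at day 2 (mouse 244). Without the filter, control maturation counts were 7 in ocular, 0 in facial and 1 in vagus, and SMA counts 1 in ocular and 6 in vagus. With only the control groups they were 5 in facial, 0 in hypoglossal, 10 in lumbar, 0 in vagus and 19 in red nucleus. Quantile normalization gave 8 in lumbar, 0 in vagus and 19 in red nucleus controls, 4 in facial, 4 in vagus and 10 in red nucleus SMA mice, and 4 and 5 for the change in red nucleus against the motor populations and lumbar, which were 6 and 12 without the shallowest library. A pseudocount of 0.1 gave 1 in vagus controls, each library as its own sample 20 in ocular controls and 4 in ocular SMA mice, and all 160 samples in the population fit 4 in hypoglossal neurons. Without 1 mouse the genotype count ran from 0 to 3. Control maturation counts ran from 0 to 3 in facial, 1 to 4 in hypoglossal, 2 to 6 in lumbar, 7 to 15 in ocular, 25 to 39 in red nucleus and 0 to 3 in vagus. SMA counts ran from 0 to 3 in facial, 5 to 7 in hypoglossal, 20 to 33 in lumbar, 1 to 4 in ocular, 8 to 26 in red nucleus and 3 to 16 in vagus. Population counts ran from 7 to 24 in facial, 4 to 9 in hypoglossal, 19 to 25 in lumbar, 45 to 52 in ocular, 17 to 26 in red nucleus, 57 to 62 in vagus, 13 to 30 for ocular against lumbar and 67 to 74 by the F test.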
